A study of Mus musculus with 8 samples.

Results

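The nuclear-encoded subunits of the mitochondrial respiratory chain and ATP synthase were followed in mouse peritoneal macrophages with and without lipopolysaccharide (LPS). Members were taken by symbol as the Nduf, Sdh, Uqcr, Cyc1, Cox4 to Cox8 and Atp5 genes, without assembly factors and 2 Atp5-named genes that are not counted as subunits (Atp5s and Atp5sl). This gave 83 of the 23735 loci in the table. Complex I had 37 members, complex II 4, complex III 9, complex IV 18 and complex V 15. The 8 RNA-seq libraries came from C57BL/6J mice 8 weeks old, in 4 groups of 2 libraries lettered A and B. Controls carried floxed MED1 alleles and are called WT, as in the labels, and the other mice had MED1 deleted in macrophages and are called KO. Both genotypes were left untreated or given LPS, the bacterial cell wall lipid sensed by TLR4, at 50 ng/mL for 6 h. The Cre driver, the deleted part of MED1 and whether A and B came from separate animals are not stated in the sources used here. P-values therefore measure the spread between these libraries, which may be technical.

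Oxidative phosphorylation moves electrons from NADH through complex I, and from succinate through complex II, to ubiquinone, then through complex III and cytochrome c to complex IV, which reduces oxygen. Complexes I, III and IV pump protons across the inner mitochondrial membrane, and complex V, the ATP synthase, uses their return to make ATP. Macrophages activated by LPS are known for a shift towards glycolysis and for accumulation and oxidation of succinate. Most subunits are encoded in the nucleus, and a small core set is encoded in mitochondrial DNA. The 13 mitochondrial genes of that set were not analysed here.

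Estimated depth was 6.98 to 14.4 M mapped reads a library, so that 1 read over 1 kb of transcript corresponded to 0.0696 to 0.143 RPKM, a read density corrected for transcript length and library size. Med1 itself lay at 17.6 to 24.4 RPKM in the 4 KO libraries and 21.6 to 24.8 in the 4 WT libraries. Its log2 change in KO was -0.18 without LPS and -0.05 with LPS (limma adjusted p = 1.0 in both), so the deletion was not seen in its whole-gene value, and no genotype direction is drawn below. KO stands for the libraries labelled as knockout throughout. All 6 macrophage markers were in the table, at a summed 31600 to 35300 RPKM in untreated WT, 15000 to 19600 in LPS-treated WT, 11300 to 17900 in untreated KO and 6160 to 7160 in LPS-treated KO. Most of that sum was Lyz2, the lysozyme gene, at 28600 and 32300 RPKM in untreated WT and 8500 and 15000 in untreated KO. The values of Emr1, Csf1r, Cd68, Itgam and Mertk overlapped between the untreated genotypes. With LPS, Csf1r, Itgam and Mertk lay lower in KO than in WT, Emr1 lay higher and Cd68 overlapped. The 4 B cell markers summed to 515 to 590, 378 to 576, 535 to 1590 and 918 to 1330 RPKM in the same order of groups, with the highest value in untreated KO B. The 6 mast cell markers summed to 0.961 and 73.6 RPKM in the untreated WT libraries, 25.2 to 87.7 in LPS-treated WT, 0.249 and 168 in the untreated KO libraries and 3.06 to 71.7 in LPS-treated KO. Fcer1a and Mcpt4 were listed at 0 in untreated KO A and KO with LPS A, and Tpsb2 in untreated KO A. The 3 T cell markers summed to at most 27.5 RPKM, with Cd3d listed at 0 in both untreated A libraries, the 3 eosinophil markers to at most 2.39 and the 4 mesothelial markers to at most 1.20. Of 6 neutrophil markers 5 were in the table, summing to 39.8 to 69.7 RPKM in untreated WT, 108 to 109 in LPS-treated WT, 43.3 to 55.7 in untreated KO and 69.4 to 121 in LPS-treated KO, and S100a8 was the largest part in every library. Epx and Prg2 of eosinophils and Mpo and Elane of neutrophils were listed at 0 in all libraries but untreated KO B. The part of these other cells in the results below was not tested, and in bulk RNA fewer cells of a type and less RNA per cell cannot be told apart.

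Of the 83 members, 78 passed the filter of at least 1 RPKM in at least 2 libraries, and their mean levels ran from 0.998 to 353 RPKM with a median of 72.8. All 4 members of complex II, all 9 of complex III and all 15 of complex V passed, as did 36 of complex I and 14 of complex IV. The other 5 are isoforms known from other tissues or from hypoxia. Cox7b2, Cox8b and Cox8c were listed at 0 in every library. Cox4i2, the lung isoform of subunit 4, was listed at 0.156 RPKM in LPS-treated WT A and at 0 elsewhere. Ndufa4l2, a hypoxia-induced relative of Ndufa4, was listed at 0.137, 0.215, 0.168 and 0.117 RPKM in the A libraries of untreated WT, WT with LPS, untreated KO and KO with LPS, and at 0 in the B libraries. Levels of their ubiquitous partners are given with complexes I and IV below.

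With LPS 76 of the 78 tested members had a lower fitted level in both genotypes, as did the set as a whole. Of all 11272 loci that passed the filter, 7741 had a lower fitted level in WT and 8120 in KO. With median-ratio scaling, an alternative taken up below, 73 members were lower in WT and 69 in KO, against 5622 and 5763 loci. Summed over all 83 members, the level was 9664 and 9273 RPKM in untreated WT (A, then B), 6949 and 5110 in LPS-treated WT, 10594 and 8381 in untreated KO, and 7438 and 5738 in LPS-treated KO. With the deposited scaling all 4 LPS libraries lay below all 4 untreated ones. Median-ratio scaling divides untreated KO B by 1.197 and KO LPS A by 0.977, which puts KO LPS A above untreated KO B. Within a letter, the LPS library held 0.719 (A) and 0.551 (B) of the untreated sum in WT and 0.702 and 0.685 in KO. As a share of all RPKM in a library, the members took 1.58% to 1.96% without LPS and 0.911% to 1.38% with LPS.

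With the deposited scaling the same order held for each complex taken alone, as the plot of summed levels by complex shows. With median-ratio scaling KO LPS A lies above untreated KO B in each complex but complex II. Complex II had the lowest ratios of LPS to untreated in 4 of 4 letter pairs, at 0.671 and 0.406 in WT and 0.627 and 0.548 in KO. Complex III had 0.832 and 0.636 in WT and 0.763 and 0.699 in KO. Complex I had 0.690 and 0.516 in WT and 0.669 and 0.658 in KO, complex IV 0.749 and 0.606 in WT and 0.744 and 0.730 in KO, and complex V 0.688 and 0.529 in WT and 0.689 and 0.686 in KO. Differences between complexes were not tested.

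**Figure D1:**
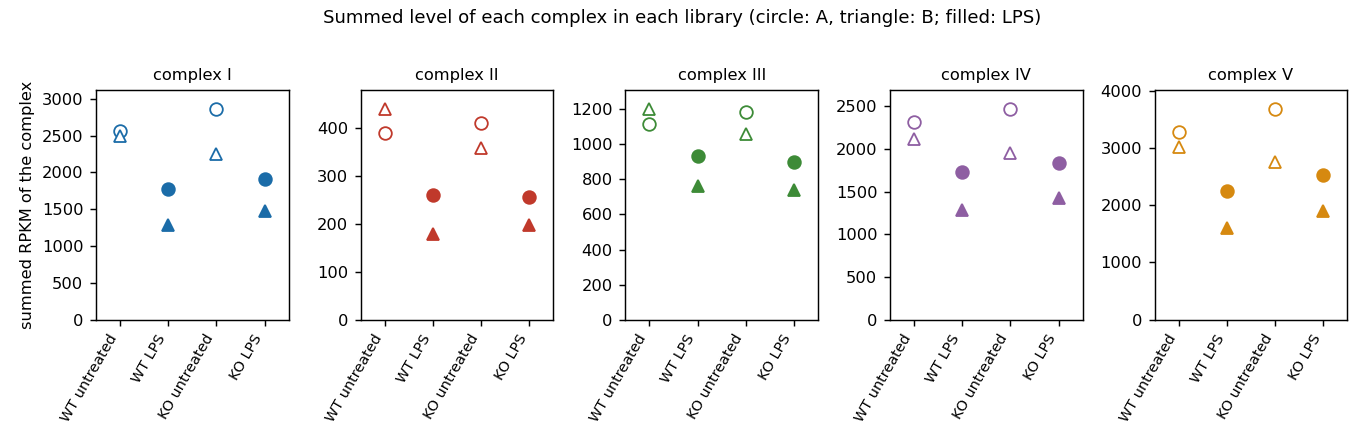
Summed RPKM (y axis, from 0) of all members of each complex in each library, by group on the x axis, with circles for A, triangles for B and filled symbols for LPS. With the deposited scaling, shown here, the 4 LPS libraries lie below the 4 untreated libraries in each complex. For complex I they span 1285 to 1911 RPKM against 2249 to 2857.

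Gene by gene, a change was tested with limma on log2(RPKM + 1) and called where the Benjamini-Hochberg adjusted p lay below 0.05 over all 11272 loci that passed the filter. Averaged over the genotypes, 42 of the 78 tested members were called lower with LPS and 1 higher, against 21.8% of all loci called lower and 8.46% called higher. The median log2 change of the members was -0.63, against -0.26 over all loci, and 74 of the 78 lay below that all-loci median. The scaling matters here, because the median of all loci itself lies below 0. Scaling the libraries by median ratios moved it up by 0.26, after which the member median was -0.33, or -0.33 relative to all loci in place of -0.37, and 19 members were called lower and 2 higher. Over all loci that scaling called 1523 lower and 1586 higher, where the deposited scaling called 2456 and 954. With the letters as a block, 60 members were called lower and 1 higher, including all 43 called without it, and over all loci it called 26.7% lower and 9.78% higher. The count of called members changed when most single libraries were left out. It fell most without KO LPS B, and also fell without untreated WT A, untreated WT B, WT LPS B, untreated KO A or KO LPS A. Without WT LPS A it rose, and without untreated KO B its size did not change. Shares over all loci are not given for these fits, which leave 1 library in a group. Whether the count over all loci moved alike is therefore not shown. The member median stayed between -0.75 and -0.50 when any 1 library was left out.

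Within 1 genotype the test had 2 libraries against 2, and Ndufb10 was the only member called in each. In WT the member median was -0.71, against -0.25 over all loci, with 3.14% of loci called lower and 3.17% called higher (354 loci lower and 514 higher with median-ratio scaling). Leaving out WT LPS B moved that median to -0.47, and leaving out WT LPS A to -0.91. In KO it was -0.54, against -0.28, with 3.31% of loci called in each direction (309 loci lower and 465 higher with median-ratio scaling). Unadjusted p was under 0.05 for 49 of 78 members in WT and 28 in KO, and for 3300 and 3292 of the 11272 loci. With the letter block, 32 members were called lower and 1 higher in WT, and 12 lower and 0 higher in KO. That block called 10.4% of all loci lower and 5.71% higher in WT, and 9.04% and 5.25% in KO, beside 41.0% and 15.4% of the members called lower. Both WT LPS libraries lay below both untreated WT libraries for 70 of 78 members (45.9% of all loci did so), and the same held in KO for 58 of 78 (48.0% of all loci). All 4 LPS libraries lay below all 4 untreated libraries for 50 of 78 members, against 30.0% of all loci. By complex these were 24 of 36 in complex I, 4 of 4 in II, 7 of 9 in III, 4 of 14 in IV and 11 of 15 in V.

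Taking each letter alone, the member median for LPS was -0.51 in WT A and -0.92 in WT B, beside -0.08 and -0.41 over all loci. In KO it was -0.55 in A and -0.57 in B, beside -0.17 and -0.41 over all loci. The members thus lay below the all-loci median in each of the 4 letter pairs, by least in KO B, as the box plot of changes by letter shows.

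**Figure D2:**
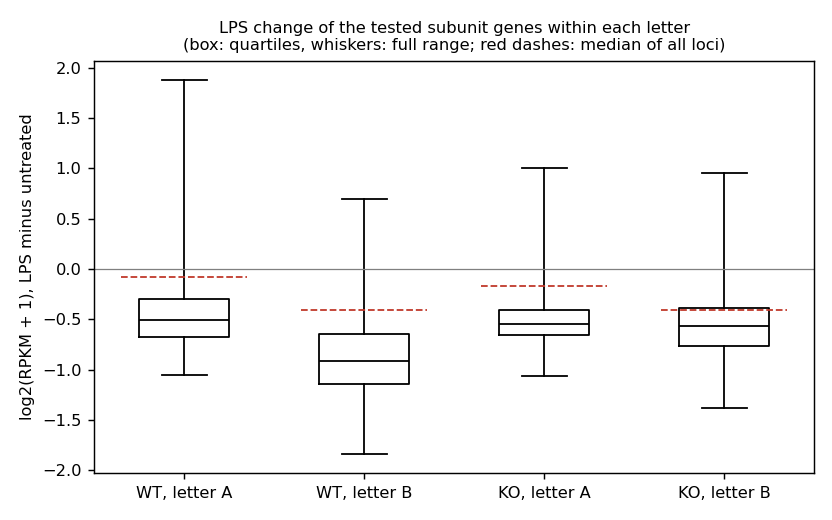
Difference in log2(RPKM + 1) between the LPS and the untreated library of the same genotype and letter (y axis), over the 78 tested members (boxes: quartiles and median, whiskers: full range), with the median of all loci as red dashes. Each box has its median below the dashes: -0.51, -0.92, -0.55 and -0.57 for the members against -0.08, -0.41, -0.17 and -0.41.

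The members, called or not, were set beside their promoters. Several transcription factors are known to act on respiratory chain genes: nuclear respiratory factor 1 (NRF1), the ETS factor GABP, also called NRF2, and YY1. RefSeq windows of 300 bases (250 before to 50 after the gene start, build GRCm38.p6) were matched for 67 of the 83 members and gave 72 windows. The letters searched on both strands were GCATGCGC for NRF1, CCGGAAG for ETS factors and AAGATGGC for YY1. The NRF1 letters were in 10 member windows (13.9%, against 2.71% of all 32851 windows), the ETS letters in 16 (22.2% against 8.86%) and the YY1 letters in 10 (13.9% against 2.75%). At least 1 of the 3 was in 30 member windows (41.7%), against 13.3% of all windows. Median GC content was 57.3% in member windows and 52.7% in all. Among members with a window, 17 of 35 called lower with LPS held at least 1 of the 3, and 13 of 30 tested members not called lower did. These matches are letters in a window, not shown binding sites.

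For each complex, the 120 bases before the start of the member with the smallest p that held such a match there are shown (for complex I the first 2 such members), 5′ to 3′ on the gene's strand, with the match in capitals. Ndufa6, Sdhb and Atp5g2 hold the NRF1 letters, in Atp5g2 overlapping on both strands. Ndufs3, Uqcrh and Cox6b1 hold the ETS letters, as their complement CTTCCGG in Uqcrh and Cox6b1.

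Ndufs3, complex I, chr2:90904722-90904841, minus strand: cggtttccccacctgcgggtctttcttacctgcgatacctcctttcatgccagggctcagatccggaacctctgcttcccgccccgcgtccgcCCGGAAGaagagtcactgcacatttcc

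Ndufa6, complex I, chr15:82354292-82354411, minus strand: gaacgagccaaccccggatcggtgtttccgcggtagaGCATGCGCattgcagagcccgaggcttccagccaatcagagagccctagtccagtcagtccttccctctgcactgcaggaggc

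Sdhb, complex II, chr4:140961151-140961270, plus strand: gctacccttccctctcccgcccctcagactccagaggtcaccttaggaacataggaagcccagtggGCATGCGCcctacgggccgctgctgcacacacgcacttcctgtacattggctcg

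Uqcrh, complex III, chr4:116075071-116075190, minus strand: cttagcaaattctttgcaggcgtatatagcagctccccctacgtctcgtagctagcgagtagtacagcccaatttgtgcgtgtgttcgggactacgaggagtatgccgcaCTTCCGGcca

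Cox6b1, complex IV, chr7:30626115-30626234, minus strand: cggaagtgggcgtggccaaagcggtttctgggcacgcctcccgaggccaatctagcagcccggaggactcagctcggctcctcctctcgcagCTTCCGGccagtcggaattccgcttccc

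Atp5g2, complex V, chr15:102671048-102671167, minus strand: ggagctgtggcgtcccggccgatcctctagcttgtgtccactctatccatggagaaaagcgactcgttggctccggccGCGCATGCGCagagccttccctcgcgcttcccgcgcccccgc

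Complex I takes electrons from NADH. Its core subunits carry the flavin and the iron-sulfur clusters and form the docking site of ubiquinone, and accessory subunits surround them. With LPS 21 of 36 tested members were called lower and 0 higher, against 21.8% and 8.46% of all loci. All 36 had a lower fitted level, against 8011 of all 11272 loci, with a median log2 change of -0.66.

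Ndufs7, the core subunit that holds the last iron-sulfur cluster before ubiquinone (mm9 chromosome 10, 79711866 to 79719539, plus strand), was at 50.8 and 50.9 RPKM in untreated WT, 28.0 and 13.5 in LPS-treated WT, 52.7 and 43.9 in untreated KO, and 24.7 and 19.9 in LPS-treated KO. Every LPS value lay below every untreated value. It fell by 1.21 on the log2 scale (SE 0.23, limma adjusted p = 0.0112), the largest fall among the 78 members. Ndufb10, an accessory subunit of the membrane arm (mm9 chromosome 17, 24859005 to 24861423, minus strand), was at 91.3 and 95.8 RPKM in untreated WT, 49.1 and 37.9 in LPS-treated WT, 112 and 97.7 in untreated KO, and 56.7 and 37.8 in LPS-treated KO. Again the groups did not overlap, and Ndufb10 had the smallest adjusted p of all members. Its log2 change averaged over genotypes was -1.13 (SE 0.18, limma adjusted p = 0.00613), with -1.10 in WT (limma adjusted p = 0.0463) and -1.16 in KO (limma adjusted p = 0.0396). The calls within 1 genotype did not hold with median-ratio scaling (limma adjusted p = 0.0596 in WT and 0.0552 in KO), and over the 13 alternatives the adjusted p reached 0.237 in WT and 0.280 in KO. Among the 43 called members, Ndufs7, Ndufb10 and Atp5c1 of complex V kept their call under all 13 alternatives, and Sdhb and Ndufb5 lost it only without KO LPS B (limma adjusted p = 0.0521 and 0.0627).

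Called core subunits also included Ndufs1, Ndufs3 and Ndufv2. Ndufs3, whose promoter stretch is shown above, ranged from 51.7 to 62.1 RPKM in the untreated libraries and from 20.5 to 35.2 with LPS. Its log2 change was -0.95 (SE 0.19, limma adjusted p = 0.0129). Log2 changes were -0.59 for Ndufs1 and -0.73 for Ndufv2. Ndufv1, the core subunit that binds NADH and the flavin, and Ndufs8 were not called. Ndufv1 was at 33.8 and 30.6 RPKM in untreated WT, 27.8 and 22.0 in LPS-treated WT, 34.2 and 26.9 in untreated KO, and 23.4 and 24.6 in LPS-treated KO, with a log2 change of -0.35 (limma adjusted p = 0.110).

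Among accessory subunits, the called members below a log2 change of -0.90 beside Ndufb10 were Ndufv3 (-1.03), Ndufb8 (-1.02), Ndufb5 (-0.95) and Ndufa5 (-0.94), and Ndufa3 stood at -0.90. Ndufb8 ranged from 79.3 to 130 RPKM without LPS and from 43.4 to 64.7 with LPS, and Ndufb5 from 34.5 to 43.0 and from 12.4 to 24.5. Neither had overlapping groups. The other called accessory subunits were Ndufa8, Ndufa13, Ndufb7, Ndufb3, Ndufc2, Ndufb11, Ndufs6, Ndufa6, Ndufb9 and Ndufa4, at -0.83 to -0.54. Ndufa4, named for complex I and since assigned to complex IV, was the most abundant member of this group, at 284 and 256 RPKM in untreated WT, 166 and 163 in LPS-treated WT, 304 and 238 in untreated KO, and 239 and 183 in LPS-treated KO. Its log2 change was -0.54 (limma adjusted p = 0.0419).

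Ndufs4, an accessory subunit whose loss in mice is a model of Leigh syndrome (mm9 chromosome 13, 115078003 to 115178302, minus strand), had the smallest change of complex I. Its values were 21.9 and 24.3 RPKM in untreated WT, 24.8 and 19.4 in LPS-treated WT, 25.5 and 24.0 in untreated KO, and 21.4 and 20.3 in LPS-treated KO. The groups overlapped in WT, and the log2 change of -0.15 (95% interval -0.47 to 0.16, limma adjusted p = 0.404) became 0.14 with median-ratio scaling. Ndufb6 and Ndufa11, both accessory subunits of the membrane arm, also overlapped between treatments, the first in WT and the other in KO. Ndufb6 stood at 47.2 and 53.6 RPKM in untreated WT, 58.6 and 23.7 in LPS-treated WT, 82.3 and 65.2 in untreated KO, and 58.8 and 52.6 in LPS-treated KO (log2 change -0.40, limma adjusted p = 0.279). Ndufa11 stood at 11.1 and 11.3, 7.72 and 6.47, 11.1 and 6.99, and 7.62 and 6.89 RPKM in the same order (log2 change -0.43, limma adjusted p = 0.0970). The other members not called, Ndufa1, Ndufa2, Ndufa7, Ndufa9, Ndufa10, Ndufa12, Ndufb2, Ndufb4, Ndufc1 and Ndufs5, had log2 changes of -0.67 to -0.41, and Ndufs8 stood at -0.39. The letter block called 27 of the 36 lower in place of 21, against 26.7% of all loci.

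**Figure D3:**
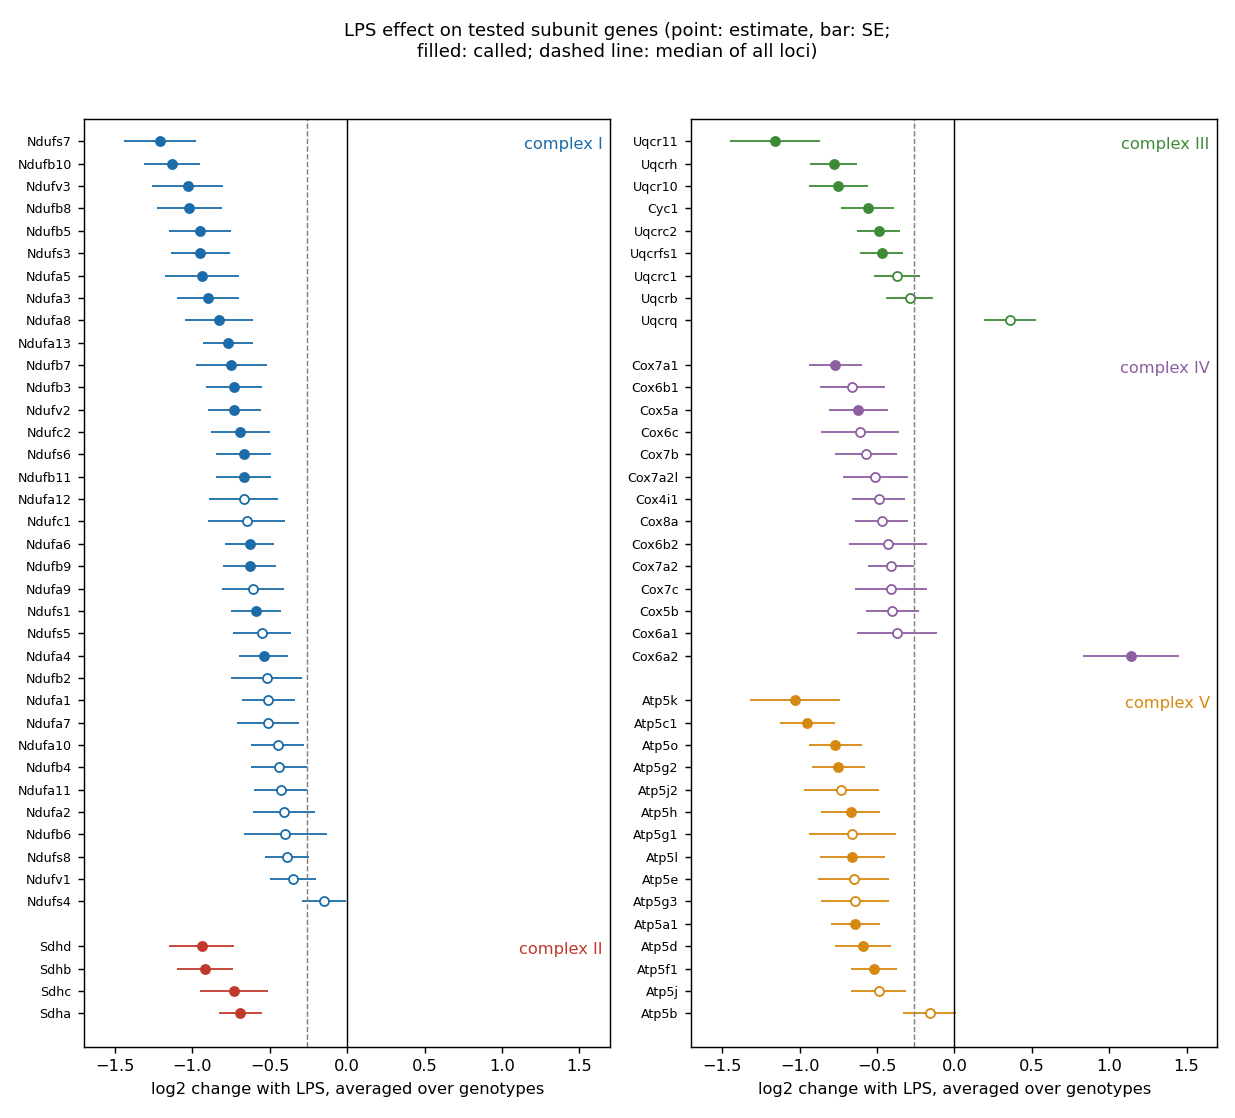
Log2 change with LPS averaged over genotypes (x axis, on the log2(RPKM + 1) scale) of tested members, grouped by complex, with SE as bars, filled points for members called by limma and a dashed line at the all-loci median of -0.26. All members shown but Uqcrq and Cox6a2 lie left of 0, from -1.21 for Ndufs7 to -0.15 for Ndufs4.

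Complex II, succinate dehydrogenase, also works in the Krebs cycle. All 4 of its subunits were called lower, against 21.8% of all loci, at changes of -0.94 to -0.69. For all 4 every LPS library lay below every untreated library, as it did for 30.0% of all loci. Sdha, the flavoprotein that oxidises succinate, was at 83.8 and 83.2 RPKM in untreated WT, 58.7 and 44.3 in LPS-treated WT, 84.4 and 86.2 in untreated KO, and 55.9 and 50.2 in LPS-treated KO. This was the tightest of the 4 among untreated libraries, and its log2 change was -0.69 (SE 0.14, limma adjusted p = 0.0133). Sdhb, the iron-sulfur subunit (mm9 chromosome 4, 140517118 to 140535108, plus strand), was at 111 and 145, 67.5 and 53.3, 106 and 97.1, and 70.6 and 49.9 RPKM in the same order of groups. It fell by 0.92 on the log2 scale (SE 0.18, limma adjusted p = 0.0118), or by 47.0% on the RPKM + 1 scale, and its promoter stretch above holds the NRF1 letters.

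The membrane anchors of complex II, which help form the quinone site, fell as well. Sdhc was at 71.2 and 63.6 RPKM in untreated WT, 49.7 and 32.0 in LPS-treated WT, 82.9 and 58.8 in untreated KO, and 52.7 and 33.1 in LPS-treated KO (log2 change -0.73, limma adjusted p = 0.0446). Sdhd, the most abundant of the 4, was at 124 and 148, 85.5 and 49.1, 137 and 117, and 78.2 and 63.7 RPKM (log2 change -0.94, limma adjusted p = 0.0161). Within 1 genotype none of the 4 was called by limma without the block, the nearest being Sdhb in WT (adjusted p = 0.0511). With the letter block all 4 were called in WT (limma adjusted p from 0.0276 to 0.0435), and Sdhc in KO (limma adjusted p = 0.0466). That block called 10.4% of all loci lower in WT and 9.04% in KO.

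Complex III passes electrons from ubiquinol to cytochrome c. Of its 9 members 6 were called lower and 0 higher, against 21.8% and 8.46% of all loci. A lower fitted level was found for 8 of the 9, against 8011 of all 11272 loci, with a median of -0.49. The 2 largest falls were those of small subunits. Uqcr11 (mm9 chromosome 10, 79865742 to 79869575, minus strand) was at 94.4 and 96.4 RPKM in untreated WT, 52.7 and 27.5 in LPS-treated WT, 113 and 83.1 in untreated KO, and 67.8 and 33.4 in LPS-treated KO. The B library was the lower of each LPS pair, and the fall was 1.16 on the log2 scale with a wide SE of 0.29 (limma adjusted p = 0.0245). The fall of Uqcrh, the hinge protein that contacts cytochrome c1 (mm9 chromosome 4, 115739570 to 115747676, minus strand), was smaller but more even. Its values were 275 and 250, 153 and 131, 237 and 241, and 170 and 130 RPKM in the same order, and its log2 change was -0.78 (SE 0.15, limma adjusted p = 0.0117).

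The electron-carrying subunits of complex III had smaller estimated falls than Uqcr11 and Uqcrh, a difference that was not tested. Cyc1, cytochrome c1, changed by -0.56 (limma adjusted p = 0.0425) and Uqcrfs1, the Rieske iron-sulfur protein, by -0.47 (limma adjusted p = 0.0365). Uqcr10 was called at -0.75. Of the core pair, Uqcrc2 was called at -0.49 and Uqcrc1 was not, at -0.37 (limma adjusted p = 0.0976, and 0.0448 with the letter block). Uqcrb, the most abundant of the complex (mm9 chromosome 13, 67001553 to 67006314, minus strand), was at 239 and 274 RPKM in untreated WT, 227 and 205 in LPS-treated WT, 251 and 239 in untreated KO, and 218 and 174 in LPS-treated KO. All LPS values lay below all untreated ones, by little, and the change of -0.29 was not called (limma adjusted p = 0.172) and was 0.01 with median-ratio scaling.

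Uqcrq, a small subunit near the quinone site (mm9 chromosome 11, 53241424 to 53244333, minus strand), lay higher with LPS. It was at 102 and 129 RPKM in untreated WT, 167 and 151 in LPS-treated WT, 124 and 88.3 in untreated KO, and 119 and 132 in LPS-treated KO. The WT groups did not overlap and the KO groups did. Its log2 change of 0.36 (95% interval -0.03 to 0.75) was not called with the deposited scaling (limma adjusted p = 0.133) and was called with median-ratio scaling at 0.66 (limma adjusted p = 0.0398). Uqcrq and Cox6a2 were the 2 members above 0 in both genotypes.

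Complex IV, cytochrome c oxidase, has its catalytic subunits in mitochondrial DNA, and the members here are the nuclear subunits around them, several with tissue isoforms. Of 14 tested members 13 had a lower fitted level, against 8011 of all 11272 loci. Only 2 were called lower, Cox5a and Cox7a1, and Cox6a2 was called higher, shares near the 21.8% and 8.46% of all loci. The median was -0.48, and with the letter block 8 were called lower and 1 higher, against 26.7% and 9.78% of all loci. Cox5a ranged from 174 to 217 RPKM without LPS and from 90.4 to 153 with LPS (log2 change -0.62, limma adjusted p = 0.0430). Cox4i1, the ubiquitous subunit 4 and the most abundant member of the complex (mm9 chromosome 8, 123192190 to 123198109, plus strand), was at 463 and 390 RPKM in untreated WT, 319 and 254 in LPS-treated WT, 441 and 356 in untreated KO, and 334 and 265 in LPS-treated KO. Its groups did not overlap, and its change of -0.49 missed the threshold (limma adjusted p = 0.0676) and passed it with the letter block (limma adjusted p = 0.0227).

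Cox6b1, Cox8a and Cox7b of complex IV also missed the threshold and passed it with the letter block, and among these 3 Cox6b1 alone had no overlap between the 4 LPS and the 4 untreated libraries. Cox6b1 was at 311 and 245 RPKM in untreated WT, 187 and 141 in LPS-treated WT, 305 and 215 in untreated KO, and 211 and 145 in LPS-treated KO (log2 change -0.66, limma adjusted p = 0.0517, and 0.00777 with the letter block). Cox8a was at 285 and 300, 217 and 186, 312 and 246, and 247 and 178 RPKM (log2 change -0.47, limma adjusted p = 0.0759, and 0.0399 with the block). For these 2 genes the B library was the lower of each LPS pair, and Cox8a in LPS-treated KO A lay just above untreated KO B. Cox7b was at 103 and 82.9, 62.1 and 53.3, 102 and 64.3, and 70.0 and 49.3 RPKM (log2 change -0.57, limma adjusted p = 0.0714, and 0.0151 with the block), with overlap in KO. Cox6b2, the testis isoform of Cox6b1, made up at most 0.726% of the pair and lay between 0.344 and 2.28 RPKM. Its log2 change was -0.43 (limma adjusted p = 0.213). The other members of the complex, Cox5b, Cox6c and Cox7c, had log2 changes of -0.40, -0.61 and -0.41 and were not called, Cox6c passing with the block (limma adjusted p = 0.0174).

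The subunit 7a isoforms differed in level and in call. Cox7a1, the heart and muscle isoform (mm9 chromosome 7, 30969190 to 30971047, plus strand), was at 3.15 and 2.11 RPKM in untreated WT, 1.49 and 1.60 in LPS-treated WT, 2.71 and 2.94 in untreated KO, and 1.08 and 0.659 in LPS-treated KO. The groups did not overlap and it fell by 0.77 (SE 0.17, limma adjusted p = 0.0182), but these values stand on an estimated 2.0 to 14 reads a library. The call was lost without untreated WT A (limma adjusted p = 0.0779) and without KO LPS B (limma adjusted p = 0.0829). Cox7a2, the ubiquitous isoform, was at 83.7 and 86.7, 61.8 and 49.8, 95.2 and 72.7, and 78.4 and 66.1 RPKM (log2 change -0.41, limma adjusted p = 0.0823, and 0.0440 with the block). Cox7a1 thus made up 0.988% to 3.88% of the pair. Cox7a2l, a gene related to both, was at 157 and 174, 154 and 91.3, 138 and 204, and 119 and 109 RPKM (log2 change -0.51, limma adjusted p = 0.105).

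Cox6a2, the heart and skeletal muscle isoform of subunit 6a (mm9 chromosome 7, 135348950 to 135349880, minus strand), was the only member called higher. It was at 1.36 and 4.75 RPKM in untreated WT, 7.70 and 8.34 in LPS-treated WT, 1.82 and 3.18 in untreated KO, and 4.66 and 7.12 in LPS-treated KO. LPS libraries lay above untreated ones within each genotype, with the highest untreated value (WT B) just above the lowest LPS value (KO A). Its log2 change was 1.14 (SE 0.31, limma adjusted p = 0.0308), with 1.29 in WT (limma adjusted p = 0.107, and 0.0334 with the letter block) and 0.98 in KO (limma adjusted p = 0.181). An estimated 7.9 to 57 reads a library stand behind it. The call was lost without untreated WT A, WT LPS B, untreated KO A or KO LPS B (limma adjusted p = 0.0727, 0.0879, 0.0736 and 0.112) and with no filter (limma adjusted p = 0.0653). Mast cell marker sums, given above, were lower in A than in B in each group, as Cox6a2 was, and so were T cell marker sums. Without and then with LPS, the mast cell sum was 0.961 and 25.2 RPKM in WT A and 73.6 and 87.7 in WT B. It was 0.249 and 3.06 in KO A, so that it was higher with LPS in these pairs, as Cox6a2 was. In KO B the mast cell sum was 168 RPKM without LPS and 71.7 with it, where Cox6a2 was higher with LPS. The part of these cells in this result was not tested. Cox6a2 overlaps Itgad on the other strand by 66 bases, and Itgad did not pass the filter.

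Cox6a1, the ubiquitous isoform, was at 219 and 181 RPKM in untreated WT, 205 and 115 in LPS-treated WT, 316 and 179 in untreated KO, and 209 and 164 in LPS-treated KO. Its groups overlapped, and its change was -0.37 (limma adjusted p = 0.306). Cox6a2 was therefore a small part of the pair throughout, at 0.617% and 2.55% in untreated WT, 3.63% and 6.76% in LPS-treated WT, 0.572% and 1.75% in untreated KO, and 2.18% and 4.17% in LPS-treated KO. Within each letter and genotype the share was higher with LPS.

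Complex V, the ATP synthase, is a rotary enzyme: protons turn a ring of c subunits, and the central stalk drives catalysis in the F1 head. Of its 15 members 9 were called lower and 0 higher, against 21.8% and 8.46% of all loci. All 15 had a lower fitted level, against 8011 of all 11272 loci, with a median of -0.66. The letter block called 14 lower, against 26.7% of all loci. Atp5c1, the gamma subunit that forms the turning stalk (mm9 chromosome 2, 9977643 to 10002137, minus strand), was at 176 and 181 RPKM in untreated WT, 96.8 and 81.3 in LPS-treated WT, 173 and 172 in untreated KO, and 115 and 73.3 in LPS-treated KO. The 4 untreated values lay close together and above all LPS values. It fell by 0.95 on the log2 scale (SE 0.18, limma adjusted p = 0.0105), or by 48.2% on the RPKM + 1 scale.

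In the catalytic head 1 of the 2 main subunits was called. Atp5b, the catalytic beta subunit and the most abundant member of the complex (mm9 chromosome 10, 127520329 to 127527447, plus strand), was at 341 and 339 RPKM in untreated WT, 322 and 264 in LPS-treated WT, 419 and 296 in untreated KO, and 349 and 306 in LPS-treated KO. The KO groups overlapped, and the log2 change of -0.16 (95% interval -0.57 to 0.24, limma adjusted p = 0.487) became 0.14 with median-ratio scaling. In the annotation Atp5b lies within Baz2a on the same strand, so reads of the 2 genes may have been split between them. Among called members, Atp5o overlaps Donson and Cryzl1 on its own strand and Ndufb8 overlaps Sec31b, with the same limit. Atp5o also overlaps Itsn1 on the other strand (log2 change -1.28, limma adjusted p = 0.00933), and strandedness is not stated. Atp5a1, the alpha subunit that alternates with beta in the head, ranged from 214 to 261 RPKM without LPS and from 130 to 179 with LPS. It was called at -0.64 (SE 0.16, limma adjusted p = 0.0254). The difference between Atp5a1 and Atp5b was not tested. Atp5d, the delta subunit of the stalk, was called at -0.59 (limma adjusted p = 0.0449), and Atp5e, the epsilon subunit, was not, at -0.65 (limma adjusted p = 0.0705, and 0.00931 with the letter block).

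In the side stalk, which holds the head still, Atp5o (the OSCP subunit), Atp5h (d) and Atp5f1 (b) were called at -0.77, -0.67 and -0.52. Atp5j, coupling factor 6, was at 143 and 154 RPKM in untreated WT, 120 and 80.4 in LPS-treated WT, 157 and 127 in untreated KO, and 118 and 97.2 in LPS-treated KO (log2 change -0.49, limma adjusted p = 0.0720, and 0.0359 with the block). Of the subunits at the membrane where synthase dimers form, Atp5k (subunit e) was at 287 and 252, 170 and 80.2, 358 and 230, and 200 and 126 RPKM. WT LPS B was its lowest library, and its log2 change of -1.03 was called (SE 0.29, limma adjusted p = 0.0357). Atp5l (subunit g) was called at -0.66 and Atp5j2 (subunit f) was not, at -0.73 (limma adjusted p = 0.0584, and 0.0107 with the block).

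The 3 genes Atp5g1, Atp5g2 and Atp5g3 encode the same mature c-ring protein with different import sequences. Atp5g2 was at 222 and 224 RPKM in untreated WT, 150 and 98.9 in LPS-treated WT, 232 and 224 in untreated KO, and 154 and 137 in LPS-treated KO, and was called at -0.75 (limma adjusted p = 0.0177). Atp5g3 was at 245 and 228, 183 and 102, 296 and 217, and 199 and 163 RPKM (log2 change -0.64, limma adjusted p = 0.0661, and 0.0196 with the block). Atp5g1 was the least abundant at 75.9 and 63.4, 49.9 and 28.6, 85.3 and 44.2, and 53.8 and 36.7 RPKM (log2 change -0.66, limma adjusted p = 0.106, and 0.0144 with the block). The mix of the 3 held within narrow bounds over the 8 libraries: Atp5g1 gave 9.1% to 14% of their sum, Atp5g2 37.8% to 46.2% and Atp5g3 44.2% to 49.0%.

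**Figure D4:**
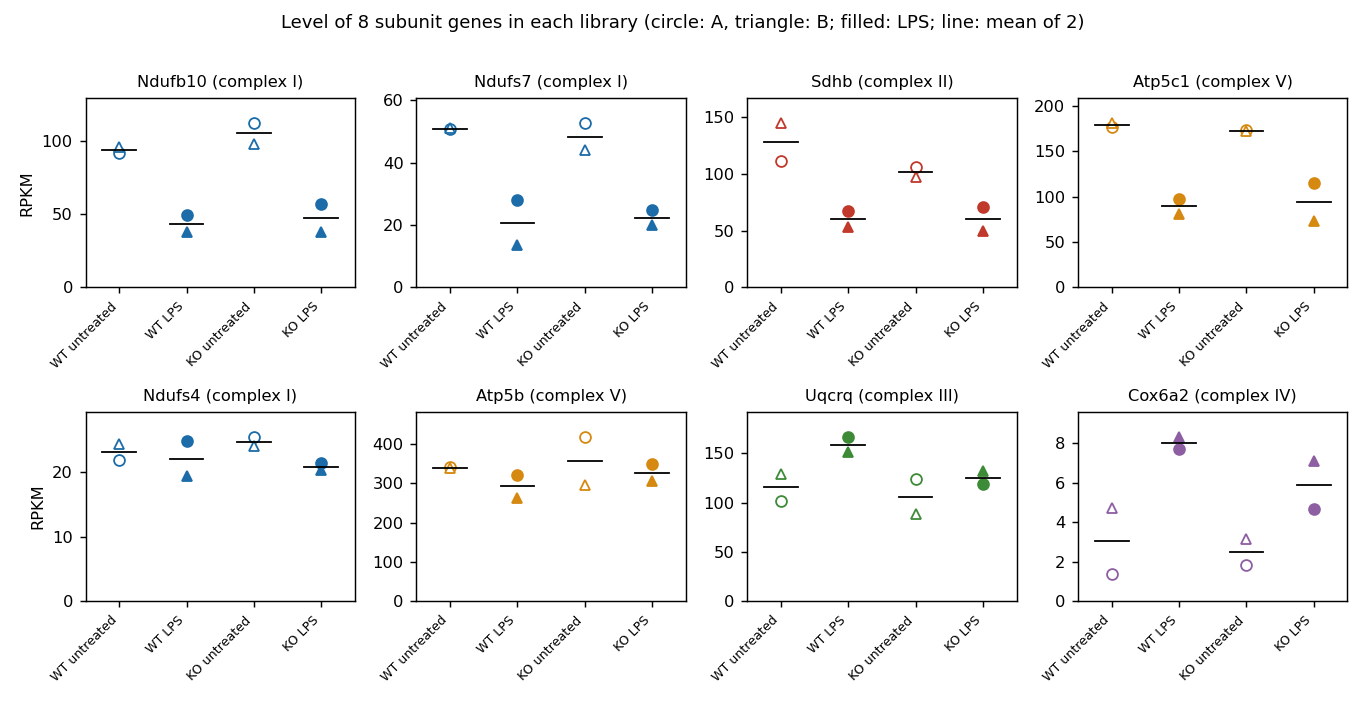
RPKM of 8 members (y axes, from 0) in each library by group (x axis), with circles for A, triangles for B, filled symbols for LPS and a line at the mean of 2 libraries. Ndufb10, Ndufs7, Sdhb and Atp5c1 have all LPS libraries below all untreated ones, Ndufs4 and Atp5b overlap, and Uqcrq and Cox6a2 have higher means with LPS in both genotypes, with overlap for Uqcrq in KO and, across genotypes, for Cox6a2.

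Between KO and WT no member was called, with or without LPS, at this depth and number of libraries. Without LPS 0 of 78 members were called in KO against WT (0.0266% of all loci were), and the median log2 difference was 0.00, beside 0.07 over all loci. With LPS 0 of 78 were called (0.00887% of all loci), with a median of 0.11 beside 0.05. By limma, 0 members had an unadjusted p under 0.05 in either comparison, and with the letter block 1 did, with LPS. The letters disagreed without LPS, where the member median was 0.15 in A and -0.15 in B. With LPS it was 0.09 in A and 0.16 in B, but the median of 0.11 became -0.11 without WT LPS B, -0.07 without KO LPS A and 0.03 with median-ratio scaling.

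Single members could still differ by amounts this design does not resolve. The smallest p without LPS belonged to Ndufb6, at a log2 difference of 0.53 (95% interval -0.37 to 1.43, limma adjusted p = 1.0), and Ndufa11, at -0.31 (-0.88 to 0.26). With LPS they belonged to Cox7a1, at -0.45 (-1.03 to 0.12), and Cox7a2, at 0.37 (-0.14 to 0.88). The interval for Ndufb6 reaches beyond 1 on the log2 scale. Summed over all members, KO held 1.10 (A) and 0.904 (B) of the WT level without LPS and 1.07 and 1.12 with LPS.

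The interaction, the KO response to LPS less the WT response, was likewise called for 0 of 78 members by limma (0.0355% of all loci), with 0 at an unadjusted p under 0.05, also with the letter block. The smallest p were those of Cox7a1, at -0.54 (95% interval -1.36 to 0.27), and Cox7a2, at 0.40 (-0.32 to 1.13). The member median was 0.15, beside -0.03 over all loci, but it was -0.08 in letter A and 0.30 in letter B. It ran from -0.10 without WT LPS B to 0.38 without WT LPS A. The smaller median fall in KO than in WT was thus not shown as a difference between genotypes.

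Other genes of the pathway were read from lists. Assembly factors build the complexes without staying in them. Of 38 tested (40 listed), 10 were called lower and 1 higher with LPS averaged over genotypes, with a median of -0.43. This share called lower is near the 21.8% of all loci, so the count sets nothing apart. The largest falls were those of Nubpl (-1.10, limma adjusted p = 0.0131), which delivers iron-sulfur clusters to complex I, Surf1 (-1.0, limma adjusted p = 0.00826), a complex IV factor, and Ndufaf7 (-0.99, limma adjusted p = 0.00815), a methyltransferase needed for complex I. Surf1 was at 23.1 and 25.3 RPKM in untreated WT, 11.2 and 8.65 in LPS-treated WT, 18.4 and 25.9 in untreated KO, and 13.8 and 10.7 in LPS-treated KO. The factor called higher was Cox17, the copper chaperone for complex IV, at 99.3 and 129, 172 and 169, 141 and 106, and 174 and 194 RPKM (0.59, limma adjusted p = 0.0325). All its LPS values lay above all its untreated values.

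Of 14 electron carrier and ATP export genes 6 were called lower and 1 higher, against 21.8% and 8.46% of all loci, with a median of -0.61. The letter block called 9 lower and 1 higher, against 26.7% and 9.78% of all loci. Atpif1, which inhibits the ATP synthase when it runs in reverse, was at 165 and 173 RPKM in untreated WT, 61.9 and 45.6 in LPS-treated WT, 184 and 130 in untreated KO, and 84.5 and 53.1 in LPS-treated KO. Its fall of 1.42 (limma adjusted p = 0.00517) had an estimate below that of every subunit, a difference that was not tested. Ucp2, an inner membrane carrier, and Slc25a4, an ADP/ATP exchanger, fell by 1.36 and 1.03 (limma adjusted p = 0.00904 and 0.0102). Vdac3, an outer membrane channel, rose by 0.52 (limma adjusted p = 0.0313), and Cycs, cytochrome c, was not called at 0.25 (limma adjusted p = 0.250). Ndufab1, an acyl carrier protein that is also part of complex I but is not matched by the symbols above, had a log2 change of -0.55 (limma adjusted p = 0.0591).

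Of 13 tested regulators of mitochondrial gene expression (16 listed), 2 were called lower and 0 higher, against 21.8% and 8.46% of all loci. Their median was -0.13, and the letter block called 3 lower and 1 higher. Ppargc1b, the coactivator PGC-1beta, fell by 1.39 (limma adjusted p = 0.0141), from 2.53 and 4.63 RPKM in untreated WT to 1.66 and 0.267 with LPS, and from 2.35 and 3.29 in untreated KO to 0.514 and 0.189 with LPS. Peo1, the mitochondrial DNA helicase, fell by 0.61 (limma adjusted p = 0.0297). The genes of the factors whose letters were searched above were not called, with log2 changes of 0.02 for Nrf1, 0.12 for Gabpa and -0.15 for Yy1 (limma adjusted p = 0.912, 0.578 and 0.481). In the interaction 0 members of these 3 lists were called.

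Short subunit genes often have processed copies elsewhere in the genome, which can take or lend reads. A match of at least 95% identity over at least 80% of the coding sequence was found elsewhere in mm9 for 20 of the 78 tested members, with 8 such matches for Atp5l and 4 each for Atp5h and Cox7c. Of those 20, 11 were called lower with a median of -0.67, and of the other 58, 31 were called lower with a median of -0.62. Values of Atp5l, Atp5g2, Cox7c and Ndufb4, whose best match was identical, are uncertain in this respect. By level, 13 of 28 members with a mean of at least 100 RPKM were called lower (median -0.63), and 29 of 50 below it (median -0.64).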

How the data were processed

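RNA-seq of 8 libraries in 4 groups was read from the deposited table of RPKM values. Per the submitters' processing notes, the authors used bcl2fastq, TopHat2 2.0.14, Cufflinks 2.2.1 and mm9. Annotation and strandedness are not stated in the sources used here. Of 24192 lines, 457 repeat a locus and were used once. In R 4.3.3 with limma 3.58.1, log2(RPKM + 1) was fitted with 1 mean per group and trended variances over all 11272 loci that reached 1 RPKM in 2 or more libraries, for 6 contrasts, two-sided, with Benjamini-Hochberg adjustment. On simulated data the fit was tested and recovered known changes. Those changes were larger than any fitted for a member, so recovery of changes of the members' size was not tested. Changes on the log2(RPKM + 1) scale understate those of low genes.

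Alternatives were median-ratio scaling, a pseudocount of 0.1, no filter, a filter at 5 RPKM, the letter as a block, and leaving out each library. The letters come from the labels. Deviations from group means correlated by letter in all 6 pairs of groups (r from 0.20 to 0.41 across loci). Pairing by letter was used only in the block alternative, and the main calls do not use it.

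The steps between low RPKM values gave an estimate of depth: 90.3% of 2803 low loci held whole multiples of 1 step, and 713 genes with 1 transcript set the absolute level. It is an estimate, so no counting intervals are given. Near copies were sought with blastn 2.17.0 on mm9, and gene positions are from GENCODE vM1. Promoters are RefSeq windows on GRCm38.p6.

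Members, gene lists and markers were chosen with earlier results of these data known. The naming rule took every called member, the most abundant and the 2 lowest and 2 highest changes of each complex, the smallest p in the MED1 comparisons, isoform sets and complex II. Because 43 members were called, values in every library are printed for those under the other parts of the rule, and the rest are given by change or range. Overlaps, letter pairs and the other pathway genes with library values were chosen after their values were seen. One result that concerns a single member is counted in the totals and not reported here.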

Additional observations from a re-analysis of the deposited data

How the results depend on the processing

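With median-ratio scaling the members called were 21 for LPS averaged over genotypes, 0 in WT and 0 in KO, and the member medians were -0.33, -0.41 and -0.24, with 0.03 for MED1 loss with LPS. Of the 43 calls 20 were kept. With no filter 0 were called in WT and 0 in KO (33 averaged), and the share over all loci is not given for that fit. The replicate block (letter pairing) called 33 in WT, 12 in KO and 61 averaged, keeping all 43, and changed no call in the MED1 comparisons. Leaving out 1 library gave 3 to 55 calls averaged, 0 to 27 in WT and 0 to 7 in KO, with medians of -0.91 to -0.47 in WT, -0.73 to -0.36 in KO and -0.11 to 0.32 for MED1 loss with LPS. Calls in the MED1 comparisons and the interaction were 0 under every alternative.

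Among the members checked singly, changes of sign were limited to members not called. With median-ratio scaling Atp5b was 0.07 in WT, 0.20 in KO and 0.14 averaged, Ndufs4 0.21, 0.06 and 0.14, and Uqcrb 0.05 in WT and 0.01 averaged. In KO it gave 0.03 for Cox6b2, 0.10 for Cox7a2 and 0.02 for Ndufa11. With this scaling 9 of the 78 members lay above 0 in KO, in place of 2, and not all of them are named here. Leaving out 1 library gave, in KO, -0.36 to 0.14 for Atp5b, -0.92 to 0.01 for Atp5g1, -0.77 to 0.05 for Cox6a1, -0.35 to 0.11 for Cox6b2 and -0.56 to 0.05 for Ndufa11. In WT it gave -0.79 to 0.04 for Cox6a1, -1.05 to 0.22 for Ndufb6 and -0.24 to 0.10 for Ndufs4. The cause was not tested. A library left out leaves 1 in its group, assumed to vary like the others. Depth limits Cox6a2, Cox7a1 and Cox6b2, which stand on few reads.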
